A study of Mus musculus with 15 samples.

Results

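The interferon-induced protein with tetratricopeptide repeats (IFIT) and 2'-5'-oligoadenylate synthetase (OAS) genes were followed in bulk RNA-seq of mouse brain cortex. The 9 genes were taken by name from the deposited count table: the IFIT genes Ifit1, Ifit2, Ifit3 and Ifit3b, the OAS genes Oas1a, Oas2 and Oas3, and the OAS-like genes Oasl1 and Oasl2. They are 9 of 53278 genes in the table, and 8 of them had enough counts to be tested, Oas3 being too low. The cortex came from 15 male C57BL/6J mice from Jax, 10 to 20 weeks old. The control group of 5 mice ate control food throughout. The depletion group of 5 ate food with PLX3397 for 9 days. The repopulation group of 5 had the same 9 days on PLX3397 followed by 9 days back on control food, so both groups compared with control had received the drug. PLX3397 is an inhibitor of the receptor CSF1R, on which microglia, the resident macrophages of the brain, depend for survival.

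Type I interferon binds the receptor IFNAR1 with IFNAR2 and activates a transcription factor complex that includes STAT2 and IRF9 and binds interferon-stimulated response elements upstream of its target genes. IFIT proteins bind foreign RNA and restrain its translation, and IFIT1 recognises RNA whose cap lacks the methylation found on the cell's own messages. OAS proteins sense double-stranded RNA and make 2'-5'-linked oligoadenylates, second messengers of RNA decay, while OAS-like proteins act in antiviral signalling.

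RNA of these genes did not differ detectably between depleted and control cortex, and most of it was about 2-fold higher in repopulated cortex. Of the 8 genes tested, 0 were called in depletion against control, and 7 were higher in repopulation against each of the other groups. Of all tested genes, 8.19% were called higher and 8.35% lower in depletion than in control, so 0 of 8 does not set these genes apart. In repopulation, 7.61% of all tested genes were called higher than in depletion and 13.9% higher than in control. Ifit1, Ifit3, Ifit3b and Oasl2 rose between 2.19-fold and 2.47-fold over control, whereas Ifit2 rose 1.24-fold and Oasl1 was not called in any comparison.

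The 4 IFIT members lie together on chromosome 19 and were not equal in response, which is why their upstream sequences are shown first. In the GRCm38 annotation, Ifit2 spans chr19:34550694-34576419, Ifit3 spans chr19:34583531-34588731, Ifit3b spans chr19:34607970-34613401 and Ifit1 spans chr19:34640871-34650009, all on the plus strand and all protein coding. Between them on the minus strand stand Ifit1bl1 and Ifit1bl2, 2 relatives that were not among the 9 members. The 6 genes span 99.3 kb. On chromosome 5, Oasl2 (chr5:114896936-114912234) and Oasl1 (chr5:114923240-114937915) are plus-strand neighbours, and an OAS cluster of 10 genes spans 191 kb, with Oas2 (chr5:120730333-120749853), Oas3 (chr5:120753098-120777661) and Oas1a (chr5:120896256-120907521) on the minus strand.

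The 250 bases before the start site in RefSeq (GRCm38.p6) were searched on both strands for GAAANNGAAA, read as TTTCNNTTTC on the other strand, the core letters of an interferon-stimulated response element. A window was held for 8 of the 9 members, all but Oas2, and 5 of these 8 had a match: Ifit1, Ifit3, Ifit3b, Oas1a and Oas3. Among all 32851 windows of the same length, 978, or 2.98%, had a match. Counted by gene, as for the members and the lists below, 936 of 27025, or 3.46%, had a match in at least 1 window. A match describes letters only, and its absence says only that these letters are not in this window. In the windows below, written 5′ to 3′ along the gene in lower case, capitals mark the matches. The first 3 genes rose most among the IFIT members, Ifit2 rose least, Oasl2 rose most among all tested members, and Oas1a has 2 overlapping matches next to its start.
Ifit1, chr19:34640639-34640888, plus strand: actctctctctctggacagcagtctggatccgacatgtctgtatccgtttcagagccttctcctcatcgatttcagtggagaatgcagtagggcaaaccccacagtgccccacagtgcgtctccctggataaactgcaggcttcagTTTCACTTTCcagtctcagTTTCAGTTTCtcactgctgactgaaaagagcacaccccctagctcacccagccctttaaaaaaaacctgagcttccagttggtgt
Ifit3, chr19:34583279-34583528, plus strand: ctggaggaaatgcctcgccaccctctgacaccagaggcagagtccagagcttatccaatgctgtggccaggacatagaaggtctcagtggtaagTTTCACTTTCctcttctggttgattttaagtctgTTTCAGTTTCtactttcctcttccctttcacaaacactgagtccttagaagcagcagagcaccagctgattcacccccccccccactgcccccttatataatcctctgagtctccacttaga
Ifit3b, chr19:34607707-34607956, plus strand: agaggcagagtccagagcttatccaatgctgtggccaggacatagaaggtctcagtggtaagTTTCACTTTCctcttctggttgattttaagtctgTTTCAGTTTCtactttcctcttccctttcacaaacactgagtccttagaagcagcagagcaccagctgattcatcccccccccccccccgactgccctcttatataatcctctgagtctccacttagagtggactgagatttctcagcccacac
Ifit2, chr19:34550444-34550693, plus strand: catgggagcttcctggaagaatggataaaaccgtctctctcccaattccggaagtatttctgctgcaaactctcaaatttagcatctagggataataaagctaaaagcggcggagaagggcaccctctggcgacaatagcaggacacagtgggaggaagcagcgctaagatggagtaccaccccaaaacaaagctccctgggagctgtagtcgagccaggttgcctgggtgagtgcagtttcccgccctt
Oasl2, chr5:114896684-114896933, plus strand: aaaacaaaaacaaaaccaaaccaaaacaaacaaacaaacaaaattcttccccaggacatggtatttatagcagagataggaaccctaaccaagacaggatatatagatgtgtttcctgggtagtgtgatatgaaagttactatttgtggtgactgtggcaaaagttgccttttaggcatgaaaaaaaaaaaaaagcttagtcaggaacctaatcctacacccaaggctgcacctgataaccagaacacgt
Oas1a, chr5:120907526-120907775, minus strand: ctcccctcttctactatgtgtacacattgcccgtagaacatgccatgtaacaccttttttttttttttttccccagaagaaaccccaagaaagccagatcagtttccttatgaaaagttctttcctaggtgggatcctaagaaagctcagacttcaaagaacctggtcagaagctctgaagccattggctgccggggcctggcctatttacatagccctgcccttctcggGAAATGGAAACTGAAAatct

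The windows of Ifit1, Ifit3 and Ifit3b each held 2 matches that do not overlap, and those of Ifit2, Oasl1 and Oasl2 held none. Oas3 held 1 match, beginning 75 bases before its start. Only 59 of all windows, 0.18%, held 2 or more matches. The windows of Ifit3 and Ifit3b were identical at 216 of 224 aligned positions (96.4%), displaced by 32 bases, so their matches are the same letters at different distances from the annotated start. In Ifit1 the 2 matches began 104 and 85 bases before the start. Those same 2 matches also lie in a window of Ifit1bl2, which runs the other way from the same stretch: the windows share 145 bases, chr19:34640744-34640888. A second Ifit2 window, from an alternative start, had no match either. Of the other IFIT and OAS relatives, 4 of 6 with a window had a match: Ifit1bl1, Ifit1bl2, Oas1c and Oas1g. Of these, Ifit1bl1, Ifit1bl2 and Oas1c were tested and not called in repopulation, so a match in the window did not go with a rise in every family gene. Oas1g was too low to test, and its summed counts, given below, were higher in repopulation. The window of Oas1c, chr5:120812515-120812764, also contains the annotated start of Oas1b, at chr5:120812635, which runs the other way. The overlapping matches of Oas1c lie just before that start. Oas1b had no window of its own and was called higher in repopulation, a call near the threshold that was lost without any 1 of several mice. Matches were also found in 11 of 30 other interferon-induced genes with a window, in 2 of 15 receptor and signalling genes, and in 0 of 5 nucleic acid sensors.

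Library totals ran from 24347802 to 48617851 counts in control, from 23413551 to 29482140 in depletion and from 26837517 to 29582274 in repopulation, and 18369 genes were tested. Levels below are in CPM, the counts of a gene relative to the library's total after TMM scaling in edgeR, with the 5 mice of each group given in the order of their labels. A gene was called where the quasi-likelihood test of edgeR gave an adjusted p under 0.05, by the Benjamini-Hochberg method over all tested genes, and log2 fold changes are given with standard errors (SE). The groups were checked with 14 microglia markers, whose summed level was 339 to 375 CPM in control, 14.8 to 19 in depletion, with Itgam at 0, and 365 to 414 in repopulation. In whole tissue, fewer cells of a type and less RNA per cell cannot be told apart. In 6 choroid plexus and ependyma markers, 4 libraries stood apart: depletion mice 1, 2 and 3, at 88.6, 209 and 116 CPM of total counts, and repopulation mouse 4, at 533, against 13.9 to 30.1 in control and 13 to 22.6 in the other 6. With all 4 left out, which leaves 2 depletion mice, 5 members were higher than in depletion and 6 higher than in control. Ifit2 and Oas1a lost their call against depletion (edgeR adjusted p = 0.0879 and 0.305) and Oas1a that against control (edgeR adjusted p = 0.0913). The part of choroid plexus tissue in the results was not tested otherwise.

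**Figure D1:**
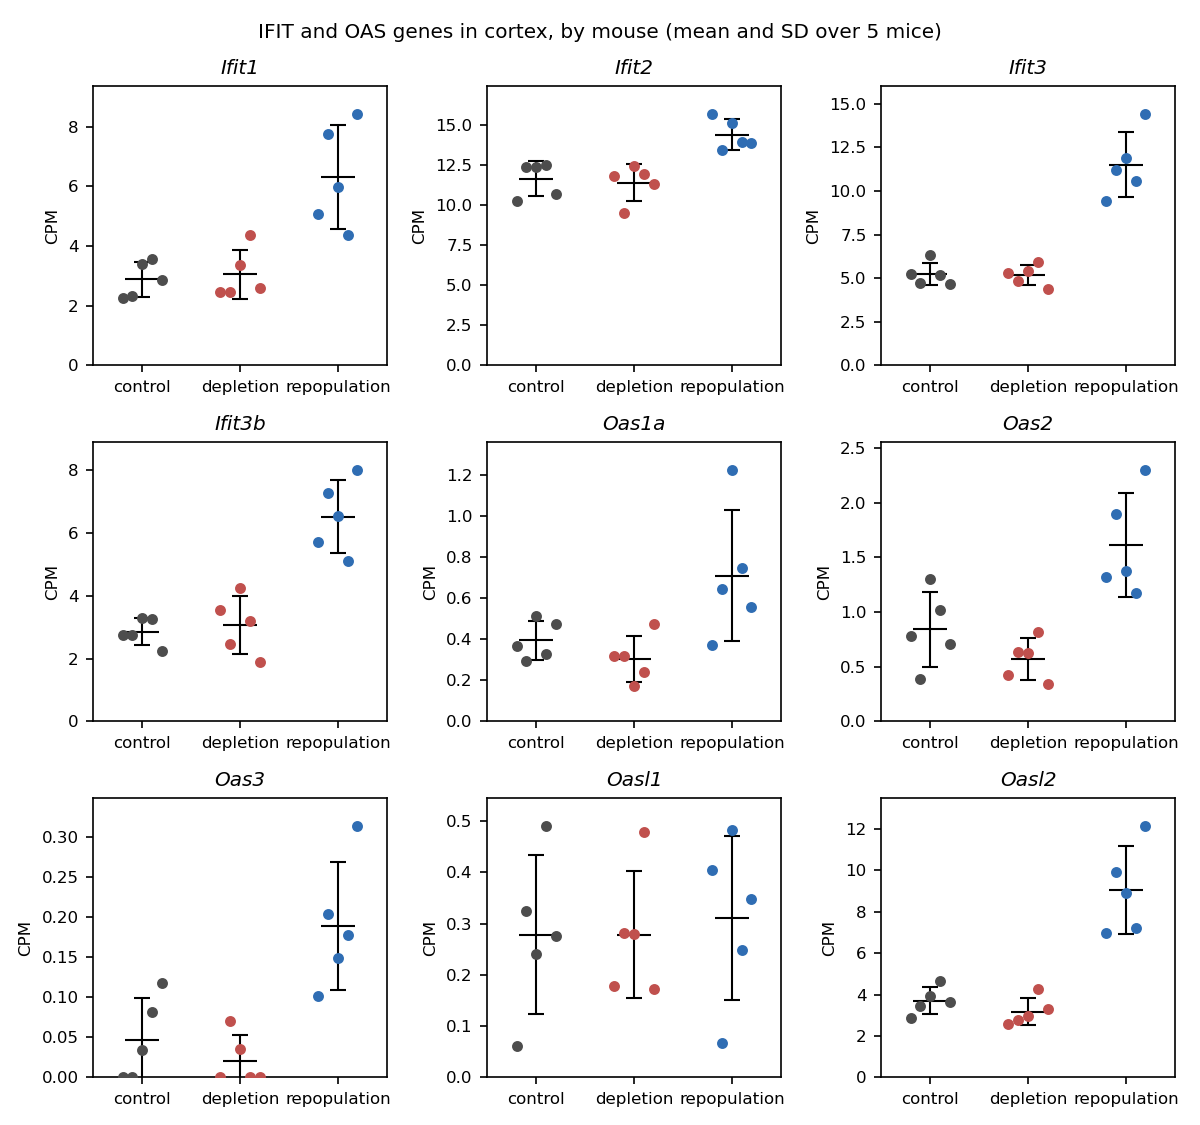
Level of each of the 9 IFIT and OAS genes in CPM (vertical axis, starting at 0) for every mouse, by group, with the mean (wide bar) and SD over 5 mice; SD bars that would pass below 0 are cut at the axis. For Ifit3 the 5 repopulation mice, from 9.44 to 14.4, lie above all 10 others, of which the highest is 6.31.

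Ifit3, whose product is an adaptor in antiviral signalling, had 5.24, 4.75, 6.31, 5.19 and 4.69 CPM in control, 5.30, 4.87, 5.40, 5.94 and 4.39 in depletion, and 9.44, 11.2, 11.9, 10.6 and 14.4 in repopulation. Every repopulated mouse was above every other mouse, and control and depletion overlapped throughout. The means were 5.24 ± 0.651, 5.18 ± 0.585 and 11.5 ± 1.86 CPM (SD, n = 5 each). Repopulation was higher than depletion by 1.15 on the log2 scale (SE 0.11, edgeR adjusted p = 1.20e-08) and higher than control by 1.13 (SE 0.11, edgeR adjusted p = 4.86e-07).

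Ifit1, the cap-sensing member, had 2.27, 2.34, 3.39, 3.55 and 2.87 CPM in control, 2.46, 2.47, 3.38, 4.37 and 2.58 in depletion, and 5.06, 7.77, 5.97, 4.37 and 8.42 in repopulation. Repopulation mouse 4, the lowest of its group, met depletion mouse 4, the highest of its own, so these groups overlapped at that point, while repopulation and control did not overlap. The rise over control was 1.15 log2 units (SE 0.20, edgeR adjusted p = 0.000304), from 2.89 ± 0.586 to 6.32 ± 1.74 CPM (SD, n = 5). Against depletion it was 1.04 (SE 0.20, edgeR adjusted p = 0.00143).

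Ifit3b, a near copy of Ifit3, had 2.74, 2.76, 3.29, 3.27 and 2.24 CPM in control, 3.56, 2.47, 4.25, 3.21 and 1.89 in depletion, and 5.70, 7.26, 6.53, 5.12 and 8.01 in repopulation. All 5 repopulated mice again exceeded the other 10. The difference from control was 1.19 log2 units (SE 0.17, edgeR adjusted p = 1.86e-05), and that from depletion was 1.07 (SE 0.17, edgeR adjusted p = 8.33e-05). The coding sequences of Ifit3 and Ifit3b were identical at 1198 of 1209 positions (99.1%), and 68.5% of all stretches of 50 bases in Ifit3 also occur in Ifit3b. How reads were divided between these copies is not known here, so the split of counts between Ifit3 and Ifit3b is uncertain.

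Ifit2, a binder of AU-rich RNA, varied little between mice. Its levels were 10.3, 12.4, 12.4, 12.5 and 10.7 CPM in control, 11.8, 9.52, 12.5, 12 and 11.3 in depletion, and 15.7, 13.4, 15.1, 14 and 13.9 in repopulation. The repopulated mice were above all others, but by a small margin. The rise was 0.31 log2 units over control (SE 0.08, edgeR adjusted p = 0.00333) and 0.34 over depletion (SE 0.08, edgeR adjusted p = 0.00367), the latter 0.32 and not called without the 4 choroid-rich libraries.

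Among the OAS-like genes, Oasl2 had 2.85, 3.45, 3.94, 4.66 and 3.66 CPM in control, 2.60, 2.75, 2.96, 4.27 and 3.31 in depletion, and 6.98, 9.94, 8.90, 7.21 and 12.1 in repopulation. No repopulated mouse overlapped with either other group. The means were 3.71 ± 0.664, 3.18 ± 0.666 and 9.04 ± 2.13 CPM (SD, n = 5 each). Repopulation exceeded control by 1.30 log2 units (SE 0.16, edgeR adjusted p = 9.74e-06) and depletion by 1.51 (SE 0.17, edgeR adjusted p = 1.61e-06).

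Oasl1, whose product restrains translation of the interferon regulator IRF7, did not follow its neighbour. It had 0.0615, 0.325, 0.240, 0.490 and 0.276 CPM in control, 0.178, 0.282, 0.279, 0.478 and 0.172 in depletion, and 0.405, 0.0678, 0.482, 0.249 and 0.348 in repopulation. The 3 groups overlapped throughout. Only 2 to 14 counts per mouse lie behind these levels, and the 95% interval of the repopulation-minus-control difference, from -0.64 to 1.16 log2 units, includes values as large as those of Ifit1 (edgeR adjusted p = 0.723). Its exons overlap an antisense gene by 38 bases, and without a stated strand setting reads of the 2 cannot be separated there.

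Among the synthetases, Oas2 had 0.778, 0.390, 1.30, 1.02 and 0.709 CPM in control, 0.427, 0.635, 0.627, 0.820 and 0.344 in depletion, and 1.31, 1.90, 1.37, 1.17 and 2.30 in repopulation. Repopulation lay above all depletion mice, while its lowest mouse was under the highest control mouse. The difference was 1.48 log2 units from depletion (SE 0.28, edgeR adjusted p = 0.000537) and 0.95 from control (SE 0.26, edgeR adjusted p = 0.00771).

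Oas1a had 0.369, 0.293, 0.514, 0.327 and 0.473 CPM in control, 0.320, 0.317, 0.174, 0.239 and 0.473 in depletion, and 0.371, 0.644, 1.22, 0.746 and 0.557 in repopulation. Repopulation overlapped with both other groups, and mouse 3 stood highest. Its rise of 1.22 over depletion (SE 0.33, edgeR adjusted p = 0.0119) and of 0.83 over control (SE 0.31, edgeR adjusted p = 0.0452) had the largest adjusted p of the 7 called members. Without repopulation mouse 3 neither was called (edgeR adjusted p = 0.0605 and 0.208), and the difference from control was 0.55. The control comparison also lost its call without control mice 1, 2, 4 or 5, depletion mice 1 or 2, or repopulation mice 2 or 4 (edgeR adjusted p = 0.0502 to 0.1004), and in DESeq2 (adjusted p = 0.0544). Oas1a and its neighbour Oas1g are identical at 96.7% of coding positions, so their counts may be shared as well.

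Oas3, the largest synthetase, was close to the limit of detection. It had 0, 0, 1, 2 and 3 counts in control, 0, 2, 1, 0 and 0 in depletion, and 3, 6, 4, 5 and 9 in repopulation. Every repopulated mouse had more than any depleted mouse, and only 1 control mouse reached the lowest of them. Summed over 5 mice and divided by depth, repopulation exceeded depletion 8.79-fold (95% interval 2.70 to 45.3, exact binomial) and control 5.00-fold (2.02 to 14.8). These intervals cover counting error only, not the spread between mice.

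In depletion against control, where 8.19% of all tested genes were called higher and 8.35% lower by edgeR, 0 of 8 members were called either way. None of the 8 had an unadjusted p under 0.05 in edgeR or in DESeq2, and the smallest was 0.0907 in edgeR, for Oas2. The log2 differences ran from -0.53 for Oas2 to 0.13 for Oasl1, with a median of -0.02 beside -0.0019 over all genes. The interval was narrow for Ifit3, from -0.24 to 0.21, and for Ifit2, from -0.18 to 0.13, and wide for Oas1a, from -1.08 to 0.31. The microglia marker Csf1r was lower by 8.58 log2 units in the same comparison (log2 fold change -8.58).

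In repopulation against depletion, 7 of 8 members were higher and 0 lower, where 7.61% of all tested genes were called higher and 8.98% lower. The median over the 8 was 1.11, beside 0.00084 over all genes. In repopulation against control, 7 of 8 were higher and 0 lower, where 13.9% of all tested genes were called higher and 15.2% lower. The median was 1.04, beside 0.0074. The members were proposed with earlier results of these data in view, and these 2 comparisons share the repopulated mice, so neither count is independent support for the other. With upper-quartile scaling the split over all genes in repopulation against depletion turned from 1398 higher and 1649 lower to 1713 higher and 1280 lower, and the number of members higher was 7 under both.

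**Figure D2:**
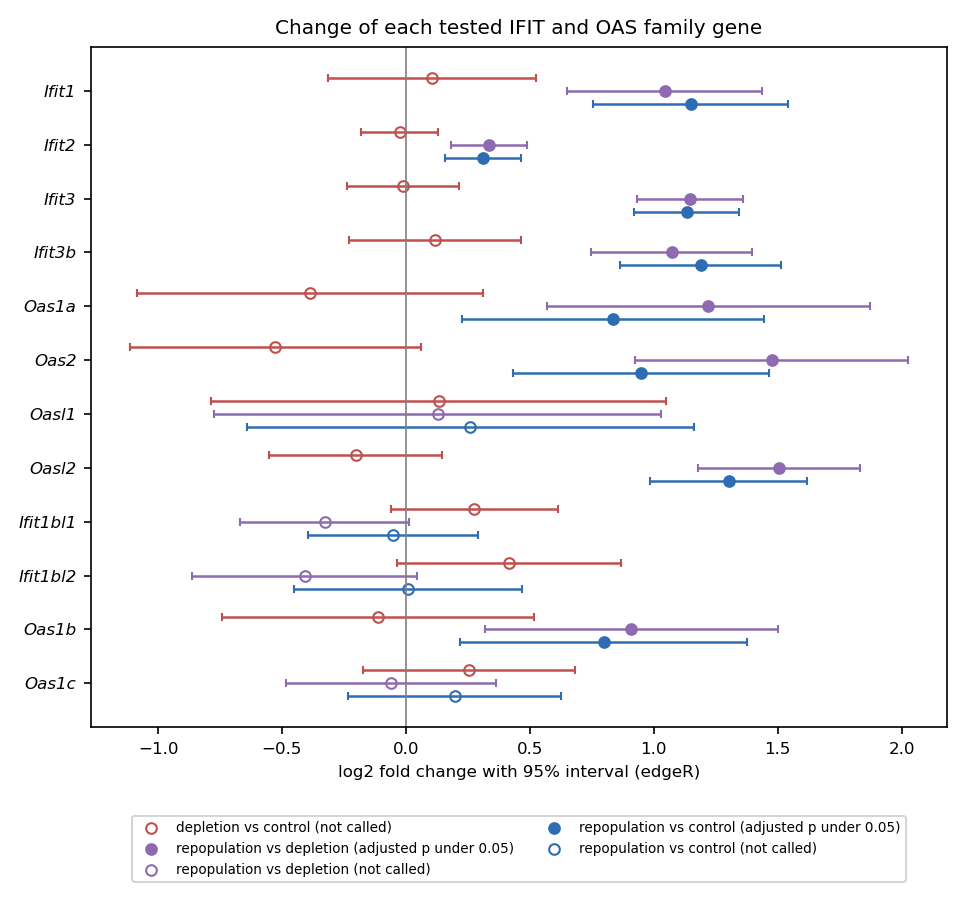
Log2 fold change with 95% interval (horizontal axis, edgeR) for the 8 tested members and 4 tested relatives in the 3 comparisons; filled points passed an adjusted p of 0.05. Depletion minus control lies around 0, while the 7 called members have both repopulation intervals to the right of 0, with Ifit2, at 0.31 and 0.34, nearest to it among them; the intervals of Oasl1 span 0.

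Read per kilobase of exon, which allows levels of different genes to be compared, the order in control was Ifit3 (3.00 ± 0.373 CPM per kb, SD, n = 5), Ifit2 (2.97 ± 0.277), Ifit3b (1.43 ± 0.217), Ifit1 (1.09 ± 0.221), Oasl2 (0.582 ± 0.104), Oas1a (0.210 ± 0.0504), Oas2 (0.189 ± 0.0770), Oasl1 (0.107 ± 0.0593) and Oas3 (0.00662 ± 0.00737). The length used joins the exons of all annotated transcripts, 6.37 kb over 9 transcripts for Oasl2 and 2.66 kb over 1 for Ifit1. The order rests on that length, and on the uncertain split of counts between Ifit3 and Ifit3b. The neighbours Ifit3 and Ifit2, and Oas1a and Oas2, were within 1 SD of each other. In repopulation the first pair came apart, Ifit3 reaching 6.59 ± 1.07 CPM per kb and Ifit2 3.67 ± 0.243. Oas2 (0.362 ± 0.106) and Oas1a (0.376 ± 0.169) stayed level with each other.

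How far each gene's rise differed from that of Ifit3 was tested within mice, as the difference of log2 levels in repopulation against control (exact permutation test over 252 assignments, two-sided, smallest possible p 0.00794, adjusted over 11 genes). This test was chosen after the values had been seen. Ifit3 gained 0.81 log2 units on Ifit2 (exact p = 0.00794, adjusted p = 0.0218), without overlap between the groups. It gained 0.03 on Ifit1 (exact p = 0.873), -0.04 on Ifit3b (exact p = 0.635), -0.14 on Oasl2 (exact p = 0.365) and 0.18 on Oas2 (exact p = 0.437). For Oas1a the gain was 0.44 (exact p = 0.143) and for Oasl1 0.99 (exact p = 0.103), neither past the threshold at these low counts. Ifit2 was thus the only member of the 7 compared whose rise was shown to be smaller than that of Ifit3.

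The relatives inside the clusters gave a contrast. Ifit1bl1 had 3.19 ± 0.714 CPM in control, 3.86 ± 0.864 in depletion and 3.08 ± 0.715 in repopulation (SD, n = 5), and Ifit1bl2 had 0.762 ± 0.156, 0.998 ± 0.306 and 0.754 ± 0.119. Neither was called: repopulation differed from control by -0.05 (edgeR adjusted p = 0.861) and 0.01 log2 units (edgeR adjusted p = 0.986). Ifit3 gained 1.18 log2 units on Ifit1bl1 and 1.13 on Ifit1bl2 (exact p = 0.00794 each, adjusted p = 0.0218), so the rises differed within 1 gene cluster.

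In the OAS cluster, 4 of 10 genes were tested. Oas1b, annotated as a polymorphic pseudogene, had 0.492, 0.325, 1.03, 0.735 and 0.630 CPM in control, 0.747, 0.458, 0.418, 1.02 and 0.215 in depletion, and 1.18, 1.02, 1.08, 1.21 and 1.01 in repopulation. Its repopulated mice were close together, at the top of the range that the other groups span. It was higher than control by 0.80 (SE 0.29, edgeR adjusted p = 0.0434) and than depletion by 0.91 (SE 0.30, edgeR adjusted p = 0.0389), and both calls rested on single mice. Without any 1 of control mice 1, 2, 4 and 5 or of the 5 repopulation mice, the first was lost (edgeR adjusted p up to 0.121). Without depletion mice 2, 3 or 5, or any of the repopulation mice, the second was lost (edgeR adjusted p up to 0.0937). Oas1c was not called (0.20 against control, edgeR adjusted p = 0.549), and Ifit3 gained 0.96 log2 units on it (exact p = 0.00794, adjusted p = 0.0218). The exons of Oas1c overlap an antisense gene by 227 bases, where reads of the 2 cannot be separated without a stated strand setting. Oas1g, too low to test, had 7, 7 and 24 counts summed over control, depletion and repopulation. Divided by depth, repopulation exceeded control 3.81-fold (95% interval 1.59 to 10.5, exact binomial) and depletion 3.35-fold (1.40 to 9.20). These intervals cover counting error only, and 6 of the 7 control counts came from control mouse 3. Oas1d had 0 counts in every library, so its RNA was not detectable at this depth.

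**Figure D3:**
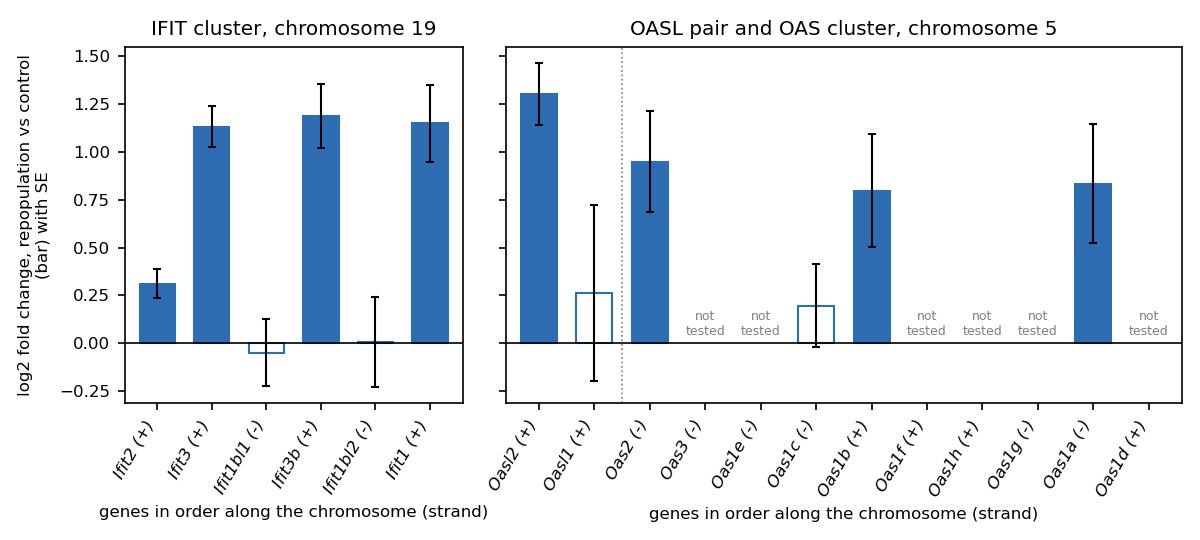
Log2 fold change of repopulation against control with SE (edgeR), for genes in their order along chromosome 19 (IFIT cluster, left) and chromosome 5 (Oasl2 and Oasl1 left of the dotted line, OAS cluster to its right), strand in brackets; filled bars passed an adjusted p of 0.05. From Ifit3 on, called and uncalled IFIT genes alternate: Ifit1bl1 (-0.05) and Ifit1bl2 (0.01) stand between Ifit3 (1.13), Ifit3b (1.19) and Ifit1 (1.15).

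Mice of 1 group differed together to some extent. Summed over the 9 members, levels were 24.6, 26.7, 31.4, 31.1 and 25.8 CPM in control, 26.7, 23.4, 29.6, 31.3 and 24.5 in depletion, and 45.1, 52.4, 51.6, 43.6 and 60.4 in repopulation. Control and depletion overlapped, and repopulation lay above both. Repopulation mouse 5 had the highest level of 5 of the 8 tested members in its group, and depletion mouse 4 also of 5 of 8. The microglia markers summed to 365, 394, 381, 374 and 414 CPM in the repopulated mice, so mouse 5 was highest in both sums. Repopulation mouse 4, highest in choroid plexus markers, had the lowest member sum.

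**Figure D4:**
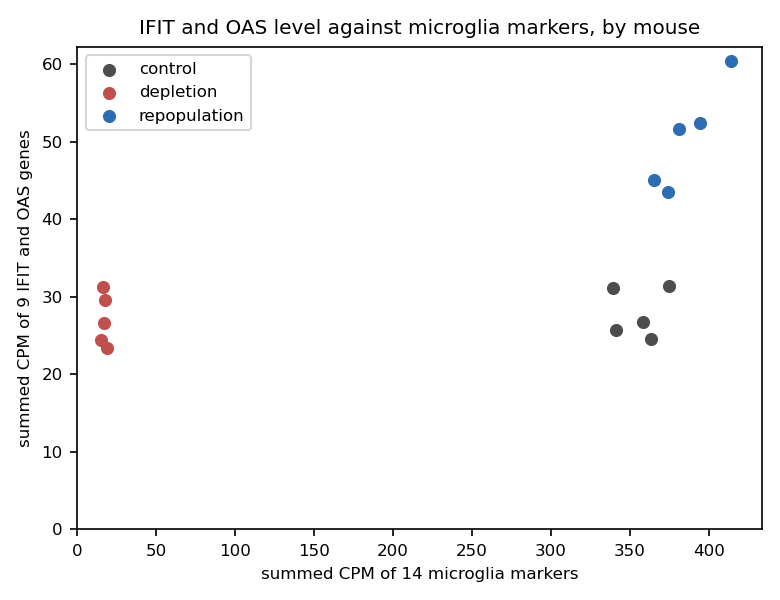
Summed CPM of the 9 IFIT and OAS genes (vertical) against summed CPM of 14 microglia markers (horizontal), 1 point per mouse, both axes from 0. Depletion (14.8 to 19 on the horizontal axis) and control (339 to 375) share the same vertical range, and repopulation stands above both at 43.6 to 60.4. Ifit2 has the highest CPM of the 9 genes in every control and depletion mouse, so the sum says little about members with low counts.

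Other markers moved with the groups too. Border macrophage markers (7 genes) summed to 29.8 to 39.3 CPM in control, 4.53 to 5.70 in depletion, with Pf4 and Ms4a7 at 0, and 31.6 to 37.6 in repopulation. Oligodendrocyte precursor markers (5 genes) summed to 143 to 172, 54.8 to 101 and 146 to 162 CPM, and pericyte and smooth muscle markers (7 genes) to 160 to 176, 134 to 152 and 169 to 178. Oligodendrocyte markers (6 genes) summed to 4183 to 4391, 4469 to 5445 and 3779 to 4551 CPM. Of these, 6 of 6 were called lower in repopulation than in depletion, where 8.98% of all tested genes were called lower. Endothelial markers (8 genes) summed to 221 to 237, 192 to 211 and 230 to 241 CPM. Blood leukocyte and dendritic cell markers (12 genes) summed to 11.6 to 12.5, 11.8 to 14.3 and 11.1 to 13.6 CPM, with Ly6c2 at 0 in control and 0 of the 2 tested genes called. Neuron markers (6 genes) summed to 6522 to 7247, 6484 to 7414 and 6637 to 7023 CPM, and the sums of astrocyte and of meningeal and fibroblast markers also overlapped between all 3 groups. The part of these cell types in the rise of the IFIT and OAS genes was not tested. In depletion, where microglia and border macrophage markers were at 14.8 to 19 and 4.53 to 5.70 CPM, the 9 members summed to 23.4 to 31.3 CPM, which overlapped with the 24.6 to 31.4 of control. Ifit2 alone averaged 11.7 CPM in control and 11.4 in depletion, whereas Oas2 averaged 0.840 and 0.571. The sums therefore say little about the members with low counts.

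The rest of the pathway was read from lists of named genes, 73 in all, of which 70 were tested. The lists were chosen with earlier results of these data known, so their counts are not independent support. Of all tested genes, 13.9% were called higher and 15.2% lower in repopulation against control. The shares were 7.61% and 8.98% in repopulation against depletion, and 8.19% and 8.35% in depletion against control. They are the background for each list below as well. In repopulation against control 40 were higher and 2 lower (median 0.33), in repopulation against depletion 48 were higher and 0 lower (median 0.54), and in depletion against control 2 were higher and 17 lower (median -0.18). The 2 became 1 without control mouse 2 or 3 or depletion mouse 1 or 4. The 2 lower than in control became 1 without control mouse 5 or repopulation mouse 2 or 5. Without the 4 choroid-rich libraries, 31 were higher in repopulation than in depletion, and 1 was higher and 11 lower in depletion than in control. The 3 ligand genes listed, Ifnb1, Ifna4 and Ifng, had 0 counts in all 15 libraries, so their RNA was not detectable at this depth.

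Of 17 receptor and signalling genes, 6 were higher and 1 lower in repopulation than in control. Irf7, the regulator that amplifies interferon production, had 1.65 ± 0.310, 1.76 ± 1.00 and 4.44 ± 0.960 CPM (SD, n = 5) in control, depletion and repopulation, a rise of 1.42 over control (edgeR adjusted p = 0.000656). Irf9 fell by 0.35 in depletion (edgeR adjusted p = 0.0051), or by 0.20 and uncalled without the 4 choroid-rich libraries (edgeR adjusted p = 0.211), and was 0.29 above control in repopulation (edgeR adjusted p = 0.008). Stat2 was 0.15 above control (edgeR adjusted p = 0.0184), the receptor gene Ifnar1 was called only against depletion (0.15, edgeR adjusted p = 0.0227), and Ifnar2 was not called. Without depletion mouse 5, Ifnar2 was called lower in depletion than in control (-0.23, edgeR adjusted p = 0.033) and higher in repopulation than in depletion (0.23, edgeR adjusted p = 0.0244). The Stat2 call was lost without control mouse 1 or repopulation mice 1 or 2 (edgeR adjusted p up to 0.0813), and that of Ifnar1 without depletion mice 2 or 4 or repopulation mice 1 or 5 (up to 0.0692). Usp18, a brake on the receptor, was 1.13 above control (edgeR adjusted p = 0.000542). The lower gene was Irf3, by 0.20 (log2 fold change -0.20, edgeR adjusted p = 0.0224), which was not called without control mouse 5 or repopulation mice 2 or 5 (edgeR adjusted p up to 0.0751).

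Of 10 nucleic acid sensors, 7 were higher and 0 lower in repopulation than in control. They included Eif2ak2, the double-stranded RNA kinase PKR (0.98, edgeR adjusted p = 3.13e-06), Ddx58, which encodes RIG-I (0.67, edgeR adjusted p = 1.36e-05), Ifih1, which encodes MDA5 (0.48), and Zbp1 (1.64). Tlr7 and Tmem173, which encodes STING, fell by 2.85 and 2.38 log2 units in depletion, where the IFIT and OAS genes were not called.

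Of 38 other interferon-induced genes, 26 were higher and 1, Shisa5, was lower in repopulation than in control. Lgals3bp rose by 1.53 (edgeR adjusted p = 8.11e-06), Ddx60 by 1.75, Ifi44 by 1.76, Gbp3, a guanylate-binding protein gene, by 1.01 and Tap1, the peptide transporter gene, by 0.74. In depletion, 10 of the 38 were lower than in control and 0 higher. Among them were Lgals9 (-0.95), Parp14 (-0.74), Trim30a (-0.78), the immunoproteasome gene Psmb8 (-1.01) and Ifi204 (-2.49). The Ifi204 value rests on few reads, 36 counts summed over the control mice and 5 over the depletion mice. Psmb8 was not called without the 4 choroid-rich libraries (edgeR adjusted p = 0.0536). Of the IFIT and OAS members 0 of 8 were called there, and the difference between the lists was not tested.

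**Figure D5:**
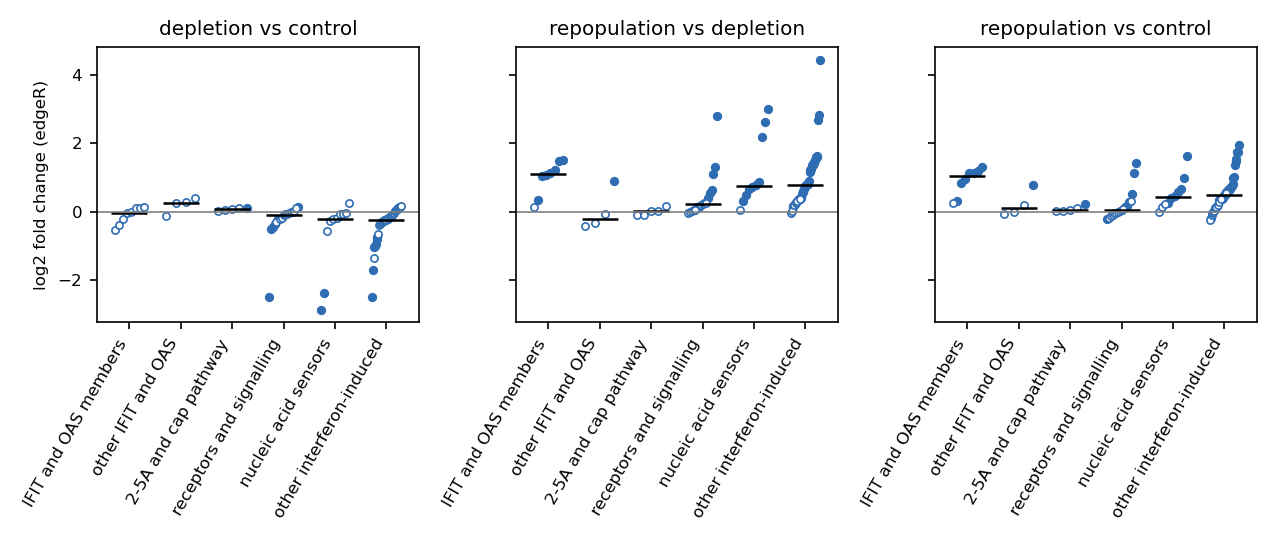
Log2 fold change (vertical, edgeR) of each tested gene in the member list and 5 pathway lists, in 3 comparisons; filled points passed an adjusted p of 0.05 and the bar is the list's median. The member median is -0.02, 1.11 and 1.04 from left to right, and the median of the 38 other interferon-induced genes is -0.23, 0.77 and 0.50.

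Genes whose levels followed each member most closely over the 15 libraries were ranked by Pearson's r of log2 CPM among genes averaging at least 1 CPM. These are descriptions: all points share the 3 groups, so that any gene high in repopulation tends to score. Eif2ak2 was among the closest 3 genes for Ifit1 (r = 0.90, Spearman's rho 0.81, n = 15) and for Ifit3b (r = 0.90, rho 0.84). Lgals3bp was closest to Ifit3 (r = 0.97, rho 0.74), Xaf1 to Ifit3b (r = 0.94, rho 0.93), Rnf213 to Oasl2 (r = 0.97, rho 0.95) and the class I antigen gene H2-K1 to Oas2 (r = 0.93, rho 0.91). With each group's mean subtracted, r was 0.65 for Ifit1 with Eif2ak2, 0.67 for Ifit3 with Lgals3bp, 0.86 for Ifit3b with Xaf1, 0.78 for Oasl2 with Rnf213 and 0.79 for Oas2 with H2-K1. Genes on none of the interferon lists reached higher r there. They were Paox for Ifit1 (0.863), Endog for Ifit3 (0.870), Tgfbr1 for Ifit3b (0.902), Accs for Oasl2 (0.871) and Gm20604 for Oas2 (0.889). These r therefore do not single out interferon genes within groups. For Ifit2 the closest were Itpr3 (r = 0.92, rho 0.84), Ptprb and Abcb1a. The closest 3 genes of Ifit2, Oas2, Oas1a and Oasl1 were on none of the interferon lists. For the low-count Oas1a and Oasl1 the closest genes, Lrig1 (r = 0.83) and Lemd1 (r = 0.78), were less alike.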

How the data were processed

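RNA from the cortex of 15 mice, 5 per group, was sequenced as 1 library per mouse. Raw counts per gene and library were used as deposited by the authors. The submitters' processing notes name FastQC, MultiQC, STAR, DESeq and DESeq2 and the build mm10. None of the counting tool, the annotation release and the strand setting was given in the sources used here. All 15 columns of the table matched a sample by name, and replicate libraries differed by more than sampling noise (chi-square per degree of freedom 2.53 to 9.95). Gene identities, positions and exon lengths came from the GENCODE M21 annotation of GRCm38, and upstream windows from RefSeq, GRCm38.p6.

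Genes with low counts were removed with filterByExpr, libraries were scaled by TMM, and 1 quasi-likelihood model with robust estimation was fitted over all 3 groups in edgeR 4.0.16 (R 4.3.3, limma 3.58.1). The procedure was tested on simulated counts with the same spread between mice for every gene and no library set apart. Changes were placed only in genes above a minimum level. The simulation therefore says little about the calls of low-count members or the choroid-rich libraries. The alternatives were DESeq2 1.42.0, other scalings and filters, fits of 2 groups only, a replicate block and leaving out each mouse. A fit with length and GC trends taken out, with and without centring, a fit without 4 libraries high in choroid plexus markers and the within-mouse ratios to Ifit3 were added after seeing the data. The members and gene lists were chosen with earlier results of these data known. Genes named from each list were those with up to 6 smallest adjusted p in each direction, plus Stat2, Irf7, Irf9, Ifnar1 and Ifnar2, and for each member the 3 genes with the highest r. Results of some genes that this rule names are not reported here. The labels do not say whether mice of different groups with the same replicate number belong together, and the main fit did not pair them.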

Additional observations from a re-analysis of the deposited data

How the results depend on the processing

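Over 26 alternatives the number of members higher in repopulation was 5 to 8 against depletion and 6 to 7 against control, and 0 members were called in depletion against control in any of them. The count of 5 came without the 4 choroid-rich libraries, which leaves 2 depletion mice. The count of 8 came without a filter on low counts, where Oas3 was tested and called against depletion (edgeR adjusted p = 0.0135) as it was against control (edgeR adjusted p = 0.0458). With a replicate block, 7 and 6 members were higher, Oas1a losing its call against control (edgeR adjusted p = 0.0682). Only 1 of 15 same-numbered pairs had a correlation over 0.1 (range -0.13 to 0.10), so the numbers were not treated as pairing mice. Signs turned only for differences that were never called. Not all of these were small: depletion minus control ran from -0.30 to 0.45 for Irf7 over the 26 alternatives. Depletion minus control turned for Stat2 (-0.0025 with upper-quartile scaling, -0.0014 without a filter, -0.0018 with a filter at a mean of 1 CPM) and for Ifit3 (0.034 with uncentred length and GC trends taken out). Repopulation minus control turned for Ifnar2 (-0.00084 without a filter, -0.00061 with 2 groups only) and Ifit1bl2 (-0.0021 with the replicate block, -0.0093 with the uncentred trends out). Without the 4 choroid-rich libraries, depletion minus control turned for Ifit3b (-0.15), Oasl2 (0.054), Oas1b (0.035) and Oas1c (-0.12), repopulation minus depletion for Oasl1 (-0.055) and Oas1c (0.34), and repopulation minus control for Ifit1bl2 (-0.0093). Leaving out 1 mouse, depletion minus control ran from -0.063 to 0.19 for Ifit1, -0.075 to 0.035 for Ifit2, -0.067 to 0.060 for Ifit3, -0.027 to 0.24 for Ifit3b, -0.22 to 0.42 for Oasl1, -0.43 to 0.12 for Oas1b, -0.30 to 0.25 for Irf7 and -0.030 to 0.016 for Stat2. Repopulation minus depletion ran from -0.075 to 0.42 for Oasl1 and -0.16 to 0.084 for Oas1c. Repopulation minus control ran from -0.10 to 0.55 for Oasl1, -0.17 to 0.071 for Ifit1bl1, -0.093 to 0.11 for Ifit1bl2 and -0.038 to 0.026 for Ifnar2. Over all genes, taking out length and GC trends gave 787 instead of 1505 genes higher in depletion and 1643 instead of 2548 higher in repopulation than in control. Without centring, 860 instead of 1533 genes were lower in depletion, 774 instead of 1398 higher and 3482 instead of 1649 lower in repopulation than in depletion, and 1425 instead of 2548 higher in repopulation than in control. Without the 4 choroid-rich libraries, 589 genes were higher and 260 lower in repopulation than in depletion. The cause was not tested. Of the pathway genes, 11 to 22 were lower and 0 to 2 higher in depletion over these alternatives (1 higher without a filter, 0 with centred trends out), 31 to 49 were higher in repopulation than in depletion, and 33 to 40 higher and 1 to 3 lower than in control. With centred trends out, Stat2 and Irf3 were not called against control (edgeR adjusted p = 0.0617 and 0.137), nor Ifnar1 against depletion (edgeR adjusted p = 0.0579). Low counts limit Oas3, Oas1g, Oasl1 and Oas1a.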
